A study of Mus musculus with 19 samples.

Results

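A set of 10 genes that mark the cells of blood vessels were followed in the mouse striatum, 10 of the 54232 genes counted. They are named markers of 2 cell types, 6 for endothelial cells (Cldn5, Pecam1, Flt1, Ly6c1, Slco1a4 and Slc2a1) and 4 for mural cells (Pdgfrb, Rgs5, Acta2 and Vtn), and the rule that picks them is this list of names, with no measured value in it. The list itself was chosen with earlier results of these data known. All 10 were among the 18521 genes with enough counts to test. Every one was detected in every mouse, with at least 50 counts for the scarcest, Acta2, and up to 2336 counts for Slc2a1.

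Striatal RNA was sequenced from 19 mice at 6 months of age on the C57/BL/6 background. Of these, 7 were wild type (WT), and 4 came from each of 3 knock-in lines that carry a mutant huntingtin allele with a long CAG repeat, the HD140Q allele of a mouse model of Huntington disease. KI-FL mice express the full-length mutant protein, KI-571 mice a shorter N-terminal fragment and KI-96 mice the shortest. All 3 lines share the expanded repeat, and in the KI-571 and KI-96 lines the HD140Q allele was cut short by CRISPR/Cas9 editing in embryos, so none of the 12 knock-in mice is a control for the repeat alone. By the study's methods the KI-571 line goes back to a single founder and KI-96 to more than 1. The study bred KI-571 and KI-96 mice as heterozygotes and tested motor function in heterozygous knock-in mice. Its sequencing methods do not state the zygosity of the KI-FL mice. The labels give neither sex nor the date on which a mouse was killed, and nothing ties same-numbered mice of different genotypes together.

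The libraries held 12669809 to 26388542 counts in genes per mouse, with a median of 18202412, and levels are given as CPM, the count scaled to a common library size by edgeR's TMM method. A count of 3, the limit that no count at all would allow, was worth 0.114 to 0.237 CPM, far below each of the 10 genes. Some libraries stood apart. KI-FL replicate 4 had counts in 16384 genes, against 23177 to 28700 in the other mice, and KI-96 replicate 3 had 24.2% of its reads outside genes, against at most 16.0% in the others. Leaving out either mouse left the number of vessel genes past the test at 0 in all comparisons with WT. Xist, the transcript that silences an X chromosome in females, was at 886 to 1615 CPM in 6 mice, among them every KI-96 mouse, and at most 5.05 CPM in the other 13, so sex and the KI-96 genotype cannot be fully told apart. With the log2 level of Xist as a covariate no vessel gene passed either, and the smallest adjusted p from edgeR was 0.430. Markers of striatal projection neurons, the main cells of the labelled tissue, led by Ppp1r1b and Penk, summed to 1994 to 4538 CPM.

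Brain capillaries are lined by endothelial cells that are sealed to each other by tight junctions and that move nutrients with dedicated transporters, which together form the blood-brain barrier. Pericytes and smooth muscle cells, the mural cells, wrap around that lining, are recruited by platelet-derived growth factor, and set vessel tone and stability. Both make up a small share of the cells in striatal tissue, so their transcripts are diluted in RNA from the whole tissue. In such bulk RNA, fewer vessel cells and less RNA per vessel cell cannot be told apart.

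The stretches of genome around the start sites of 4 of these genes are shown. They set genes whose levels went with Rgs5 over the 19 mice beside Ly6c1, which did not go with it. Flt1 with Rgs5 and Slc2a1 with Rgs5 were among the 3 most alike pairs, and Ly6c1 had an r close to 0 with Rgs5 (-0.0098, and -0.0027 without KI-96 replicate 3). With Slc2a1, Ly6c1 had an r of 0.38 (0.32 without that mouse), and with Flt1 -0.19 (0.031 without it). Ly6c1 thus stood apart from Rgs5 but not from every gene shown. The most alike pair over all 19 mice, Cldn5 with Pdgfrb, is not shown. Each stretch is 300 bases of mouse build GRCm38.p6 from RefSeq, 250 before and 50 after the annotated start, written 5′ to 3′ on the strand of the gene. Capitals mark AGGAAG or its reverse complement CTTCCT, a core that factors of the ETS family bind, many of which act in endothelial cells.
Flt1 (chr5:147725962-147726261, minus strand): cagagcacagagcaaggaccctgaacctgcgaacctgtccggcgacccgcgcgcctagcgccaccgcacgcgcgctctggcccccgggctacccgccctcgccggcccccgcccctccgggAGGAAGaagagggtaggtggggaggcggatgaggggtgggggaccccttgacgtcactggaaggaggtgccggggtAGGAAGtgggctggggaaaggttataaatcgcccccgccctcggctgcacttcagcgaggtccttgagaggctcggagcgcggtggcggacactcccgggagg
Rgs5 (chr1:169655251-169655550, plus strand): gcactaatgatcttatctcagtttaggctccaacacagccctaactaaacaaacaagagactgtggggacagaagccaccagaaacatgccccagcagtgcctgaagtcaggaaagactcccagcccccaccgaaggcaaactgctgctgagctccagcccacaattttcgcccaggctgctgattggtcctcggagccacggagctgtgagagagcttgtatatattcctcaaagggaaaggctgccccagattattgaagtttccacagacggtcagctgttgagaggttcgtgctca
Slc2a1 (chr4:119108495-119108794, plus strand): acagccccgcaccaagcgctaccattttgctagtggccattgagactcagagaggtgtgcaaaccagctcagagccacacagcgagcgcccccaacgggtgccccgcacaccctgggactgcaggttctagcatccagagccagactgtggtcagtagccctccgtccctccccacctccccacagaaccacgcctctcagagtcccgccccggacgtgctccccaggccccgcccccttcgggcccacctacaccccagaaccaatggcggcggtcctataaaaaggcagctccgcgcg
Ly6c1 (chr15:75048614-75048913, minus strand): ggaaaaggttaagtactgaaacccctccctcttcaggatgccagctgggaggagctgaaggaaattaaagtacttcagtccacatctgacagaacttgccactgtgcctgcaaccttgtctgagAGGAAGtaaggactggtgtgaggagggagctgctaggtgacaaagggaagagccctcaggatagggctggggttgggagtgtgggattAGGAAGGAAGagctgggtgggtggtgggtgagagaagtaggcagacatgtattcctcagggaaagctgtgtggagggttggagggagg
The letters matched at 2 places in the Flt1 window, 129 and 53 bases before the start, and at 3 places in this Ly6c1 window, 126, 38 and 34 bases before it, the last 2 of which overlap. Another annotated Ly6c1 start lies further upstream, at the 5′ end of the gene (window chr15:75048788-75049087, not shown). It had no match, nor had the Rgs5 and Slc2a1 windows. RefSeq gave 9 windows for 8 of the 10 genes, and 3 of the 9 (33.3%) held the letters on either strand, beside 35.4% of all 32851 mouse windows of that length (11613 windows), so the share among these genes was close to that of all promoters.

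The genotypes were compared by edgeR's quasi-likelihood test on the counts of all 19 mice, with p-values adjusted over all 18521 genes by the Benjamini-Hochberg method and a threshold of 0.05. None of the 10 vessel genes passed it in KI-FL, KI-571 or KI-96 mice against WT, in all 12 knock-in mice against WT, or in any of the 3 comparisons between knock-in lines. The share of all genes that passed was itself small, 0.027% (5 genes) in KI-96, 0.0324% (6 genes) in KI-571 and 0.194% (36 genes) in KI-FL mice, 0.054% (10 genes) in all knock-in mice together, 0.0864% (16 genes) between KI-571 and KI-FL, 0.0054% (1 gene) between KI-96 and KI-571 and 0.0% between KI-96 and KI-FL mice, so that none of 10 is what the background gives. DESeq2, run as an alternative, also passed none of the 10, although it passed between 28 and 509 of all genes in the 4 comparisons with WT. In simulated counts for the KI-FL comparison at this depth, edgeR recovered 62% of genes given a 2-fold and 78% of those given a 4-fold difference. The changed genes were drawn at random from all 18521 tested genes. Recovery of the 10 vessel genes was not measured separately.

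With all WT mice as the reference, the data give an interval for each difference. These intervals carry no batch term and are not adjusted for their number. Of the 30 intervals for the 10 genes in the 3 knock-in lines, 29 lay within a 2-fold difference of WT in either direction, and the exception was Cldn5 in KI-96 mice, whose interval reached 2.01-fold. Intervals within 1.5-fold were held by 5 genes in KI-96, 5 in KI-571 and 4 in KI-FL mice. At an unadjusted p under 0.05 there were 2 of 10 genes in KI-571 mice, Slc2a1 and Vtn, beside 7.72% of all genes. No vessel gene reached that level in KI-96, KI-FL or all knock-in mice, where 7.45%, 16.7% and 12.9% of all genes did.

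**Figure D1:**
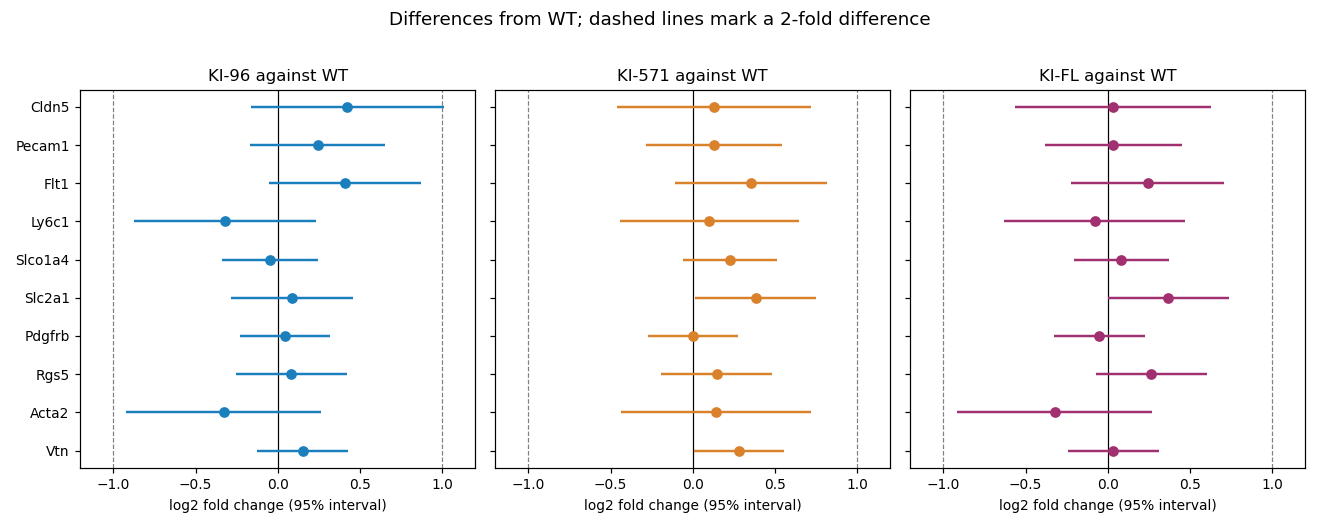
Log2 fold change of each of the 10 vessel genes in the 3 knock-in lines, KI-96, KI-571 and KI-FL, against WT (points) with 95% intervals (bars), from edgeR on the counts of 19 mice; 0 is no difference and the dashed lines mark 2-fold. All points lie between -0.33 and 0.42, and the bars of all genes but Cldn5 in KI-96 mice end inside the dashed lines.

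Among the endothelial genes, Cldn5 (ENSMUSG00000041378.2, chromosome 16, 18776847 to 18778262, plus strand, GRCm38) encodes claudin-5, the main sealing protein of the tight junctions of brain capillaries. Cldn5 levels in the 7 WT mice were 10.4 CPM at the lowest, 13.9 at the median and 30.3 at the highest. For Cldn5 the 4 KI-96 mice gave 18.6, 24.9, 10.9 and 33.3 CPM, the KI-571 mice 22, 14.3, 18.7 and 16.5 CPM and the KI-FL mice 22, 14.2, 19.2 and 11.6 CPM. The highest mouse, KI-96 replicate 4, stood 3.20-fold above the lowest, WT replicate 6, and all 4 genotypes overlapped, with a mean ± SD 16.4 ± 7.25 CPM (n = 7) in WT, 21.9 ± 9.49 in KI-96, 17.9 ± 3.29 in KI-571 and 16.7 ± 4.69 in KI-FL mice (n = 4 each). Relative to WT, the fitted Cldn5 level was 1.34 times (95% interval 0.894 to 2.01) in KI-96, 1.09 times (95% interval 0.726 to 1.65) in KI-571 and 1.02 times (95% interval 0.676 to 1.55) in KI-FL mice, with edgeR adjusted p-values of 0.765, 0.982 and 0.963. For KI-96 against WT, the Cldn5 log2 fold change of 0.42 moved to 0.14 without KI-96 replicate 4, to 0.65 without KI-96 replicate 3 and to 0.052 with Xist as a covariate. The spread of Cldn5 between mice of 1 genotype was the widest of the 10 genes, an SD of 0.52 on the log2 scale, against an SD of 0.084 from counting alone, and its intervals were wide accordingly.

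Pecam1 (ENSMUSG00000020717.19, chromosome 11, 106654217 to 106750628, minus strand) encodes an adhesion molecule at the contacts between endothelial cells of all vessels. Pecam1 levels in the 7 WT mice were 8.63 CPM at the lowest, 12.8 at the median and 19.95 at the highest. For Pecam1 the 4 KI-96 mice gave 13.1, 21.3, 11.7 and 17.1 CPM, the KI-571 mice 16.3, 13.7, 11.5 and 16.7 CPM and the KI-FL mice 15.9, 12.9, 14 and 11.7 CPM. The 3 lowest of all 19 values were those of WT replicates 5, 6 and 7, and all 12 knock-in mice lay above those 3 and inside or near the range of WT replicates 1 to 4. Pecam1 relative to WT was 1.18 times (95% interval 0.891 to 1.57) in KI-96, 1.09 times (95% interval 0.822 to 1.46) in KI-571 and 1.02 times (95% interval 0.767 to 1.36) in KI-FL mice, with edgeR adjusted p-values of 0.811, 0.964 and 0.945. Group means were close, with a mean ± SD 13.4 ± 3.86 CPM (n = 7) in WT, 15.8 ± 4.33 in KI-96, 14.6 ± 2.43 in KI-571 and 13.6 ± 1.75 in KI-FL mice (n = 4 each).

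Flt1 (ENSMUSG00000029648.13, chromosome 5, 147561604 to 147726011, minus strand) encodes the vascular endothelial growth factor receptor that binds its ligand tightly and holds back vessel sprouting. Flt1 levels in the 7 WT mice were 22.6 CPM at the lowest, 34.1 at the median and 66.9 at the highest. For Flt1 the 4 KI-96 mice gave 45, 49.6, 60.4 and 49.7 CPM, the KI-571 mice 67.5, 39.7, 43.4 and 46.6 CPM and the KI-FL mice 53.7, 43.1, 50.2 and 35.3 CPM. WT mice spanned nearly the whole range seen in the study, with WT replicate 1 next to the highest mouse, KI-571 replicate 1, while all knock-in mice lay above the 4 lowest WT mice. The group values were mean ± SD 38.6 ± 15.8 CPM (n = 7) in WT, 51.2 ± 6.52 in KI-96, 49.3 ± 12.4 in KI-571 and 45.6 ± 8.15 in KI-FL mice (n = 4 each). Flt1 relative to WT was 1.33 times (95% interval 0.964 to 1.83) in KI-96, 1.28 times (95% interval 0.929 to 1.76) in KI-571 and 1.18 times (95% interval 0.857 to 1.63) in KI-FL mice, with edgeR adjusted p-values of 0.703, 0.794 and 0.5996. Over all 12 knock-in mice it was 1.26 times (95% interval 0.985 to 1.62) the WT level (edgeR adjusted p = 0.423).

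Ly6c1 (ENSMUSG00000079018.10, chromosome 15, 75044018 to 75048830, minus strand) encodes a surface protein of the Ly6 family that is abundant on brain endothelium in mice. Ly6c1 levels in the 7 WT mice were 18 CPM at the lowest, 18.8 at the median and 27.5 at the highest. For Ly6c1 the 4 KI-96 mice gave 13.3, 20.3, 5.96 and 24.9 CPM, the KI-571 mice 12.8, 27.1, 20.3 and 26.5 CPM and the KI-FL mice 23.4, 21.5, 18.9 and 12.7 CPM. WT mice were close together apart from replicate 2, at 27.5 CPM, while the knock-in groups were spread widely, and the lowest value came from KI-96 replicate 3, with 110 counts. That was the library with the high share of reads outside genes. Ly6c1 relative to WT was 0.801 times (95% interval 0.545 to 1.18) in KI-96, 1.07 times (95% interval 0.735 to 1.56) in KI-571 and 0.946 times (95% interval 0.646 to 1.39) in KI-FL mice, with edgeR adjusted p-values of 0.821, 0.984 and 0.897. Without KI-96 replicate 3 its log2 fold change in that line was -0.046 rather than -0.32, and neither value passed the threshold. Its close relative Ly6c2 had at most 6 counts in any mouse, which leaves few reads to be shared between the pair.

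Slco1a4 (ENSMUSG00000030237.14, chromosome 6, 141805440 to 141856199, minus strand) encodes an organic anion transporter of the barrier that carries bile acids, steroid conjugates and drugs. Slco1a4 levels in the 7 WT mice were 24.9 CPM at the lowest, 27.5 at the median and 32.7 at the highest. For Slco1a4 the 4 KI-96 mice gave 22.4, 28.7, 27.4 and 31.2 CPM, the KI-571 mice 35.4, 36, 22.6 and 38.9 CPM and the KI-FL mice 31.1, 25.2, 26.7 and 37.2 CPM. The 7 WT mice lay within a narrow band, and 3 of the 4 KI-571 mice lay above it while the other was below it. Slco1a4 relative to WT was 0.967 times (95% interval 0.791 to 1.18) in KI-96, 1.17 times (95% interval 0.959 to 1.43) in KI-571 and 1.06 times (95% interval 0.866 to 1.29) in KI-FL mice, with edgeR adjusted p-values of 0.966, 0.78 and 0.788. Its relative Slco1a5 had 26 and 30 counts in KI-571 replicates 2 and 4 and at most 5 in any other mouse. The 8 choroid plexus markers summed to 48.0 to 5409 CPM in KI-571 and 46.3 to 413 CPM in WT mice. Their part in the Slco1a4 values was not tested.

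Slc2a1 (ENSMUSG00000028645.11, chromosome 4, 119108711 to 119137983, plus strand) encodes GLUT1, the transporter through which glucose enters the brain across the endothelium, and is also made by astrocytes. Slc2a1 levels in the 7 WT mice were 55 CPM at the lowest, 67 at the median and 119 at the highest. For Slc2a1 the 4 KI-96 mice gave 85.4, 88.8, 67.5 and 83.7 CPM, the KI-571 mice 112, 97.8, 83.1 and 107 CPM and the KI-FL mice 107, 129.6, 82.8 and 76.8 CPM. The 3 lowest mice were WT replicates 5, 6 and 7, all KI-571 mice lay above the WT median, and WT replicate 2 and KI-FL replicate 2 were the highest, so the groups overlapped. The group values were mean ± SD 76.7 ± 23 CPM (n = 7) in WT, 81.3 ± 9.46 in KI-96, 99.99 ± 12.7 in KI-571 and 99 ± 24.2 in KI-FL mice (n = 4 each). Slc2a1 relative to WT was 1.06 times (95% interval 0.82 to 1.37) in KI-96, 1.3 times (95% interval 1.01 to 1.68) in KI-571 and 1.29 times (95% interval 0.999 to 1.67) in KI-FL mice, with edgeR adjusted p-values of 0.947, 0.609 and 0.2998. The unadjusted p was 0.0419 in KI-571 and 0.0505 in KI-FL mice. Leaving KI-FL replicate 2 out lowered the log2 fold change in KI-FL mice from 0.37 to 0.21.

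**Figure D2:**
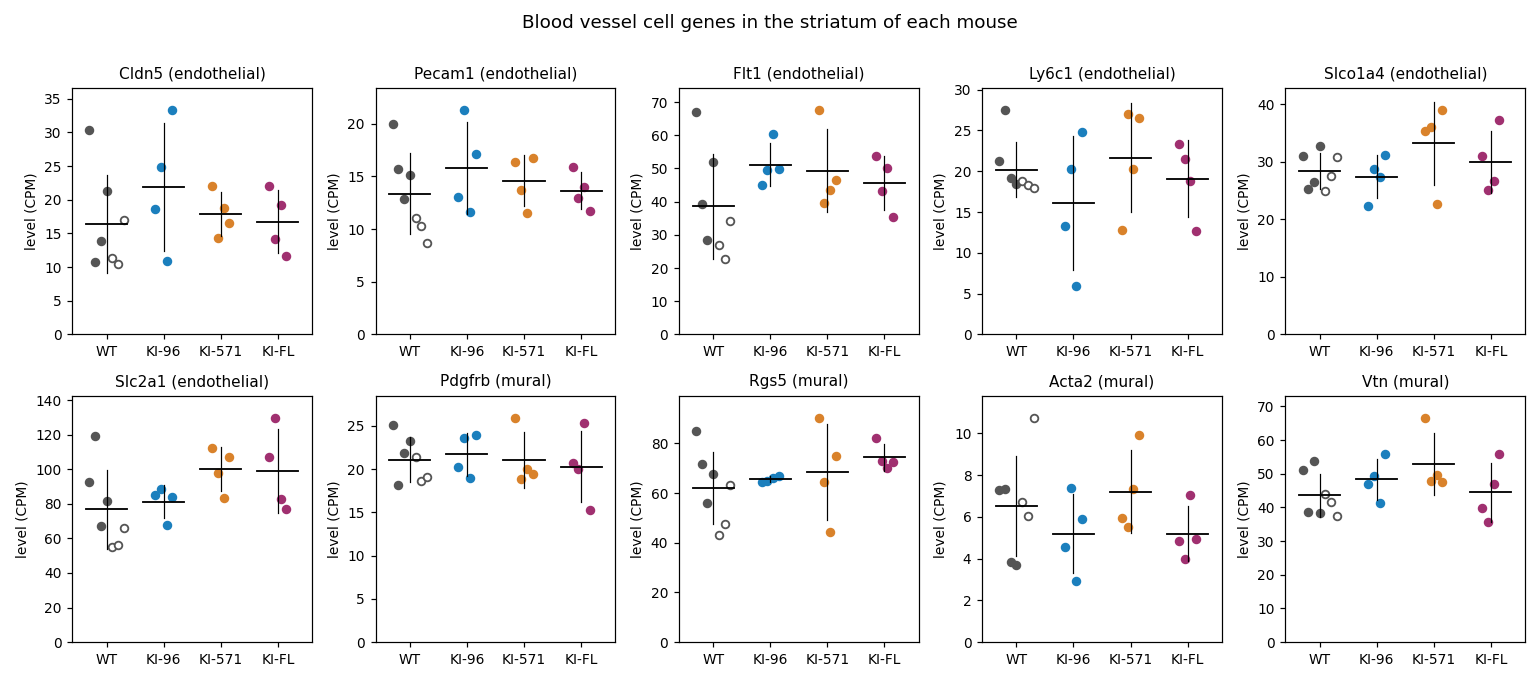
Level of each vessel gene (CPM, each axis from 0) in each of 19 mice, with a point per mouse, open points for WT replicates 5 to 7, a line at the group mean and a bar of 1 SD. The groups overlap with WT in all 10 panels. The open points are the lowest WT mice for Pecam1, at 8.63 to 11.1 CPM, and for Slc2a1, at 55.0 to 65.8 CPM. For Flt1 and Rgs5 the lowest WT mice are replicates 5 and 6, while replicate 7 is at the WT median of 34.1 and 63.2 CPM.

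Of the mural genes, Pdgfrb (ENSMUSG00000024620.11, chromosome 18, 61045150 to 61085061, plus strand) encodes the receptor by which pericytes answer platelet-derived growth factor from the endothelium. Pdgfrb levels in the 7 WT mice were 18.2 CPM at the lowest, 21.4 at the median and 25.1 at the highest. For Pdgfrb the 4 KI-96 mice gave 20.3, 23.6, 18.9 and 24 CPM, the KI-571 mice 25.9, 18.8, 20.05 and 19.4 CPM and the KI-FL mice 20.6, 19.95, 25.3 and 15.3 CPM. It had the smallest spread within genotypes of the 10 genes, an SD of 0.21 on the log2 scale, and its group means lay close together, with a mean ± SD 21.1 ± 2.57 CPM (n = 7) in WT, 21.7 ± 2.48 in KI-96, 21 ± 3.27 in KI-571 and 20.3 ± 4.09 in KI-FL mice (n = 4 each). Pdgfrb relative to WT was 1.03 times (95% interval 0.851 to 1.25) in KI-96, 1.0004 times (95% interval 0.826 to 1.21) in KI-571 and 0.965 times (95% interval 0.796 to 1.17) in KI-FL mice, with edgeR adjusted p-values of 0.967, 0.999 and 0.867. These intervals were among the tightest of the set, with all 3 inside 0.796- to 1.25-fold.

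Rgs5 (ENSMUSG00000026678.10, chromosome 1, 169655501 to 169695813, plus strand) encodes a regulator that switches off G protein signals and marks pericytes and arteriolar smooth muscle. Rgs5 levels in the 7 WT mice were 43 CPM at the lowest, 63.2 at the median and 84.9 at the highest. For Rgs5 the 4 KI-96 mice gave 64.4, 64.8, 66.1 and 67 CPM, the KI-571 mice 90.2, 64.3, 44.3 and 75.1 CPM and the KI-FL mice 82.2, 72.8, 70.2 and 72.4 CPM. The 4 KI-96 mice were tightly grouped and all lay below the lowest KI-FL mouse, while WT and KI-571 mice spread from 43.0 to 90.2 CPM across both. Rgs5 was the 1 gene of the 10 whose levels did not overlap between 2 genotypes, KI-96 and KI-FL, beside 3.16% of all genes in that comparison, and none of the 10 did so in KI-571 against KI-FL mice, where 4.32% of all genes did, or in KI-96 against KI-571 mice, where 2.85% did. The KI-96 level was 0.881 times (95% interval 0.676 to 1.15) the KI-FL level with an edgeR adjusted p of 0.795. Against WT, Rgs5 was 1.06 times (95% interval 0.838 to 1.34) in KI-96, 1.11 times (95% interval 0.876 to 1.4) in KI-571 and 1.2 times (95% interval 0.951 to 1.52) in KI-FL mice, with edgeR adjusted p-values of 0.944, 0.948 and 0.417. None of the 10 genes separated from WT without overlap, beside 1.24% of all genes in KI-96, 1.55% in KI-571 and 5.29% in KI-FL mice.

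Acta2 (ENSMUSG00000035783.8, chromosome 19, 34241090 to 34255590, minus strand) encodes smooth muscle actin, the contractile protein of arterioles, and was the scarcest of the 10 by counts, 50 to 281 in a mouse. Acta2 levels in the 7 WT mice were 3.69 CPM at the lowest, 6.71 at the median and 10.7 at the highest. For Acta2 the 4 KI-96 mice gave 4.55, 7.39, 2.93 and 5.92 CPM, the KI-571 mice 5.96, 5.53, 7.34 and 9.94 CPM and the KI-FL mice 4.85, 3.96, 7.03 and 4.96 CPM. Values differed 3.67-fold between the lowest mouse, KI-96 replicate 3, and the highest, WT replicate 7, with no separation of genotypes. Acta2 relative to WT was 0.796 times (95% interval 0.528 to 1.2) in KI-96, 1.1 times (95% interval 0.738 to 1.64) in KI-571 and 0.7998 times (95% interval 0.53 to 1.21) in KI-FL mice, with edgeR adjusted p-values of 0.832, 0.977 and 0.583. The enteric relative Actg2 had at most 6 counts in any mouse.

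Vtn (ENSMUSG00000017344.4, chromosome 11, 78499091 to 78502324, plus strand) encodes vitronectin, an extracellular matrix and plasma protein that in the brain comes mostly from pericytes and in the body mostly from the liver. Vtn levels in the 7 WT mice were 37.5 CPM at the lowest, 41.8 at the median and 53.7 at the highest. For Vtn the 4 KI-96 mice gave 46.9, 49.3, 41.4 and 56 CPM, the KI-571 mice 66.6, 47.8, 49.5 and 47.5 CPM and the KI-FL mice 39.9, 35.7, 46.9 and 55.7 CPM. Of the KI-571 mice, replicate 1 was the highest of all 19 and the other 3 lay close together inside the WT range. Vtn relative to WT was 1.11 times (95% interval 0.918 to 1.35) in KI-96, 1.21 times (95% interval 1.003 to 1.47) in KI-571 and 1.02 times (95% interval 0.844 to 1.24) in KI-FL mice, with edgeR adjusted p-values of 0.833, 0.636 and 0.915, with an unadjusted p of 0.0467 in KI-571 mice. Without KI-571 replicate 1 its log2 fold change in KI-571 mice was 0.15 in place of 0.28. Alb, the plasma albumin gene of the liver, passed the threshold in all 3 lines against WT with 0 to 2 counts in a WT mouse and 2 to 467 in a knock-in mouse, and the summed level of 10 liver genes ran from 0.344 to 1.12 CPM in WT and from 0.542 to 45.9 CPM in knock-in mice, with 4 of the 10 high enough to test. The part of liver-type RNA in the Vtn values was not tested.

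Levels of different genes can be set beside each other only per length. In WT mice, in mean CPM per kilobase of exon, Slc2a1 (21.9 ± 6.55) and Vtn (21.5 ± 3.19) were the most abundant of the 10, followed by Rgs5 (13.6 ± 3.18), Ly6c1 (12.04 ± 2.02) and Cldn5 (11.6 ± 5.12), and then at a clear distance by Slco1a4 (4.43 ± 0.489), Pdgfrb (3.85 ± 0.470), Acta2 (2.97 ± 1.09), Flt1 (2.86 ± 1.17) and Pecam1 (2.15 ± 0.620) (SD, n = 7). Neighbours in that order differed by less than the larger of their SDs, except at the steps from Vtn to Rgs5, from Cldn5 to Slco1a4 and from Slco1a4 to Pdgfrb. Slc2a1 is also made outside vessels and Vtn outside the brain, as said above, so this order is one of transcripts in the tissue.

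The 10 genes leaned in 1 direction without any passing. Their median log2 fold change was 0.084 in KI-96 (7 above WT, 3 below), 0.14 in KI-571 (10 above) and 0.033 in KI-FL mice (7 above, 3 below), while the median of all genes was -0.015, -0.0089 and -0.028. That lean turned on which WT mice were used. WT replicates 5 to 7 were sequenced more deeply, with 23457270 to 26388542 counts against 17281603 to 18945441 in WT replicates 1 to 4, and had lower means of Slc2a1 (59.0 against 90.0 CPM), Flt1 (27.9 against 46.6), Rgs5 (51.2 against 70.1), Pecam1 (9.99 against 15.9) and Cldn5 (12.9 against 19.1), with Acta2 the other way (7.82 against 5.53).

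Set against WT replicates 1 to 4 alone, the medians were -0.049 in KI-96 (3 genes above, 7 below), 0.043 in KI-571 (6 above, 4 below) and -0.067 in KI-FL mice (3 above, 7 below), so the direction turned in both the shortest-fragment and the full-length line. When WT replicates 5 to 7 alone were the reference they were 0.30, 0.39 and 0.25, with 7, 9 and 9 of the 10 genes above WT. The nearest any vessel gene came to the threshold was Flt1 in all knock-in mice against WT replicates 5 to 7, with an edgeR adjusted p of 0.0564. Its log2 fold change was 0.80 there and 0.058 with WT replicates 1 to 4 as the reference. In all knock-in mice against WT replicates 1 to 4, the smallest edgeR adjusted p of the 10 genes was 0.9999. Whether these 3 WT mice share a batch is not given in the labels, and the part of such a batch was not tested.

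The sums show the same. The 6 endothelial genes added up to 145 to 174 CPM in WT replicates 5 to 7, to 168 to 262 CPM in WT replicates 1 to 4 and to 184 to 266 CPM in the 12 knock-in mice. For the 4 mural genes the sums were 114 to 130.5 CPM, 133 to 168 CPM and 121 to 189 CPM. Knock-in mice thus lay above WT replicates 5 to 7 in the endothelial sum and across the range of WT replicates 1 to 4.

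**Figure D3:**
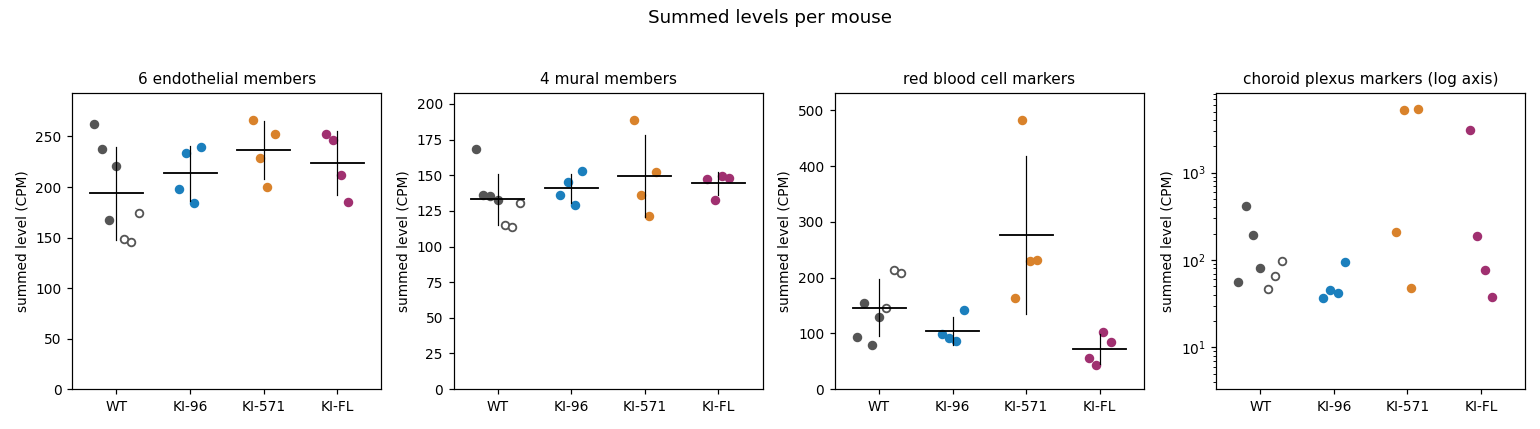
Summed level (CPM) per mouse of the 6 endothelial and 4 mural genes, of 5 red blood cell markers and of 8 choroid plexus markers (log axis), with points for mice, open points for WT replicates 5 to 7 and, on the linear axes, the group mean and 1 SD. The vessel sums overlap between all groups, whereas red cell markers reach 483 CPM in KI-571 mice and choroid plexus markers range from 36.7 to 5409 CPM.

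How the 10 genes varied together over the 19 mice is given as a description, since mice of a genotype share its effect and all values share library depth and dissection. Of the 45 pairs, 39 had a positive Pearson r of log2 CPM, with a median of 0.27. Pairs of endothelial genes had a median of 0.31 (15 pairs), pairs of mural genes 0.13 (6 pairs) and mixed pairs 0.27 (24 pairs), with the lowest median among the mural genes. The most alike were Cldn5 and Pdgfrb (r = 0.74), Flt1 and Rgs5 (0.73) and Slc2a1 and Rgs5 (0.71), each a pair across the cell types, and the lowest was Flt1 with Ly6c1 (-0.19). That last value rests on KI-96 replicate 3, since without this mouse it was 0.031 and the lowest pair was Ly6c1 with Vtn (-0.36, against -0.11 with it). The most alike pair without it was Cldn5 with Flt1 (0.80, against 0.65 with it).

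**Figure D4:**
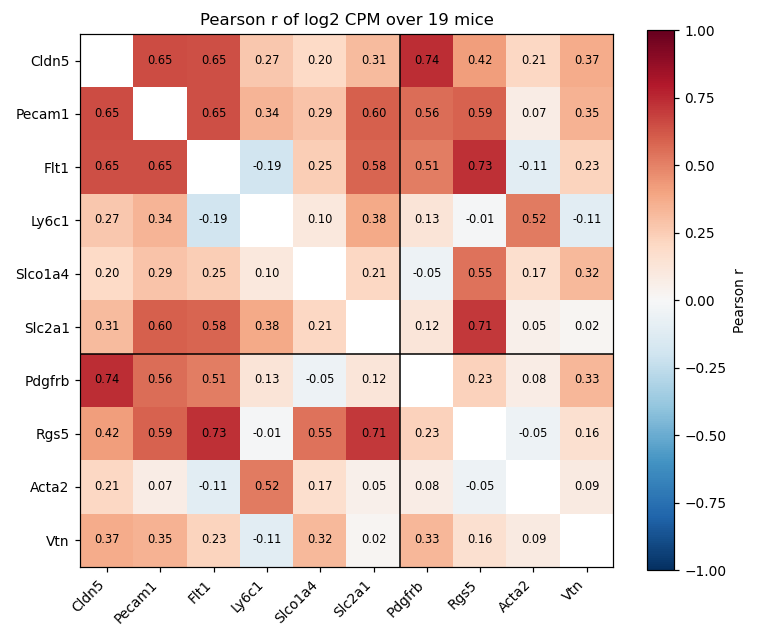
Pearson r of log2 CPM over 19 mice for each pair of vessel genes, with lines between the 6 endothelial and the 4 mural genes. Cldn5, Pecam1 and Flt1 form a block at 0.65, Rgs5 is close to Flt1 and Slc2a1, Vtn reaches at most 0.37 with any other gene, and Acta2 at most 0.21 with any gene but Ly6c1 (0.52). The r of Acta2 with Ly6c1 was 0.26 without KI-96 replicate 3.

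Among all tested genes, those most like Cldn5 included Rad23b (0.78), Nars (0.76), Pdgfrb (0.74) and Kdr (0.72), the last being the main signalling receptor for vascular endothelial growth factor. For Vtn they were Eef1d (0.84), Fam171a2 (0.76), Ankrd40 (0.72), Afg1l (0.72) and Bcan (0.72), and for Acta2 Fam167a (0.82), Cd24a (0.81), Tmem212 (0.79), Dnajb13 (0.78) and Fdx1 (0.76). Without KI-96 replicate 3 the values for Acta2 were 0.80, 0.74, 0.74, 0.70 and 0.67, in the same order. None of the genes named for Vtn and Acta2 is on the lists of vessel genes used below. Flt1, looked at after its values were seen, was followed by Epas1 (0.91), Pgm5 (0.89), Abcb1a (0.88), Cxcl12 (0.86) and Erg (0.85), of which Abcb1a encodes the barrier's drug efflux pump and Erg an endothelial transcription factor of the ETS family. Ly6c1, likewise, was followed by Rrp9 (0.96), Atox1 (0.93) and Eif1 (0.93), whose r without KI-96 replicate 3 was 0.89, 0.83 and 0.82. These are values over 19 mice for genes picked as the highest of 18521, and carry no test. The genes most like the other vessel genes are not listed, so these examples do not show how often such genes belong to vessels.

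A wider set of 90 genes of vessel biology, in 8 lists, of which 88 could be tested, gave no gene past the threshold in any of the 7 comparisons. At an unadjusted p under 0.05 there were 9 of 88 in KI-96 (7 above WT, 2 below), 16 in KI-571 (12 above, 4 below) and 13 in KI-FL mice (7 above, 6 below), which is 10.2%, 18.2% and 14.8% beside 7.45%, 7.72% and 16.7% of all genes. Their median log2 fold change was 0.065, 0.11 and -0.048. DESeq2 passed 1 of the 88 in KI-96 (Vwf), 3 in KI-571 (Slco2b1 and Vwf among them) and 2 in KI-FL mice (Lmod1 and Mcam), beside 0.151%, 0.574% and 2.75% of all genes to which it gave an adjusted p.

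The list of endothelial identity (18 genes, such as Ptprb, a phosphatase that restrains the Tie2 receptor, and Itm2a) had a median log2 fold change of 0.21 in KI-96, 0.22 in KI-571 and -0.0016 in KI-FL mice. Ptprb held 28.3 ± 9.05 CPM in WT and 39.6 ± 10.001, 31.1 ± 6.73 and 29.7 ± 6.69 CPM in the KI-96, the KI-571 and the KI-FL line. Of the 8 tight junction genes, the scaffold Tjp1 held 119 ± 15.9 CPM in WT and 117 ± 8.24, 113 ± 11.6 and 98.4 ± 12.2 CPM in the 3 lines, and 7 of the 8 lay below WT in KI-FL mice, 2 of them at an unadjusted p under 0.05. Of all genes, 16.7% reached that level in KI-FL mice in either direction, and 46.1% lay above WT. Neither of these lists held a gene past the threshold.

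The 15 genes of barrier transport had 6 at an unadjusted p under 0.05 in KI-571 mice, all above WT, beside 1 above and 1 below in KI-96 and 1 above and 1 below in KI-FL mice. Of all genes, 7.72% reached that level in KI-571, 7.45% in KI-96 and 16.7% in KI-FL mice. Their most abundant members were the amino acid transporter subunit Slc3a2, at 76 ± 5.55 CPM in WT and 79.8 ± 8.68 CPM in KI-571 mice, and the transferrin receptor Tfrc, at 68 ± 12.7 CPM in WT, 61.4 ± 15.5 in KI-571 and 47.3 ± 12.8 in KI-FL mice. Several barrier transporters are also made by the choroid plexus, and the 8 markers of that tissue summed to 46.3 to 413 CPM in WT, 36.7 to 94.6 CPM in KI-96, 48.0 to 5409 CPM in KI-571 and 37.9 to 3065 CPM in KI-FL mice. All 8 of those markers lay above WT in KI-571 mice at an unadjusted p under 0.05 and none passed the adjusted threshold. Their part in the transporter values was not tested.

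Of the 10 further pericyte genes, 5 lay above WT in KI-96, 4 in KI-571 and 4 in KI-FL mice, with Notch3, a receptor of mural cells, at 25.6 ± 3.997 CPM in WT and 30.2 ± 7.71, 24.3 ± 3.77 and 28.3 ± 4.15 CPM in the 3 lines. The smooth muscle list had 7 of 9 genes high enough to test, with Tpm2 at 15.2 ± 1.92 CPM in WT and 11.6 ± 4.81, 18.4 ± 5.26 and 12.9 ± 5.84 CPM. Growth factor signals (13 genes) held the ligands Vegfa, at 87.7 ± 13.5 CPM in WT and 59.2 ± 12.9 CPM in KI-FL mice (edgeR adjusted p = 0.222), and Vegfb, at 54.6 ± 3.91 and 58 ± 6.57 CPM. The Wnt pathway that maintains the barrier (12 genes) had its co-receptor Lrp6 at 84.1 ± 6.46 CPM in WT and 86.8 ± 7.94 CPM in KI-FL mice. Of 5 receptors and partners of vitronectin, the integrin subunits Itgav and Itgb5 stood at 113 ± 13.3 and 56.8 ± 4.7 CPM in WT and at 99.1 ± 12.5 and 69.6 ± 10.5 CPM in KI-571 mice.

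A pair of these genes, chosen after their values were seen, came closest to the threshold. Vwf encodes von Willebrand factor, the clotting protein stored in endothelial cells. WT mice held 6.80 CPM of Vwf at the lowest, 10.8 at the median and 15.6 at the highest. Vwf in the KI-96 mice was 19.3, 22.8, 24.1 and 16.3 CPM, the KI-571 mice 24.6, 21.7, 17 and 18.8 CPM and the KI-FL mice 13.9, 12.9, 13.1 and 21.5 CPM. All 8 KI-96 and KI-571 mice lay above all 7 WT mice, as 1.24% and 1.55% of all genes did in either direction, while KI-FL mice overlapped with WT. The log2 fold change was 0.94 ± 0.21 (SE) in KI-96, 0.93 ± 0.21 in KI-571 and 0.52 ± 0.22 in KI-FL mice, with edgeR adjusted p-values of 0.273, 0.1005 and 0.237. It kept its sign in all 27 alternatives in each line, and passed the threshold in 3 of 27 in KI-96 and in KI-571 mice (DESeq2, no filter on low counts, and WT replicates 5 to 7 alone), with adjusted p-values between 0.0182 and 0.999997 in KI-96 and between 0.0119 and 0.912 in KI-571 mice. Its log2 fold change against only WT replicates 1, 2, 3 and 4 was 0.72 in KI-96 and 0.71 in KI-571 mice.

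Mcam encodes the adhesion molecule CD146, found on pericytes and on endothelium. WT mice held 29.3 CPM of Mcam at the lowest, 36.9 at the median and 48.5 at the highest. Mcam in the KI-96 mice was 26.6, 33.3, 20.9 and 41.2 CPM, the KI-571 mice 19.6, 24.4, 33.4 and 25.9 CPM and the KI-FL mice 21.9, 18.4, 25.8 and 19.7 CPM. All 4 KI-FL mice lay below all 7 WT mice, where 5.29% of all genes did not overlap, while the other lines overlapped with WT. The log2 fold change was -0.37 ± 0.18 (SE) in KI-96, -0.61 ± 0.18 in KI-571 and -0.87 ± 0.19 in KI-FL mice, with edgeR adjusted p-values of 0.679, 0.277 and 0.0511. In KI-FL mice it stayed below 0 in all 27 alternatives and passed the threshold in 9 of them, DESeq2 included, with adjusted p-values between 0.0013 and 0.458.

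**Figure D5:**
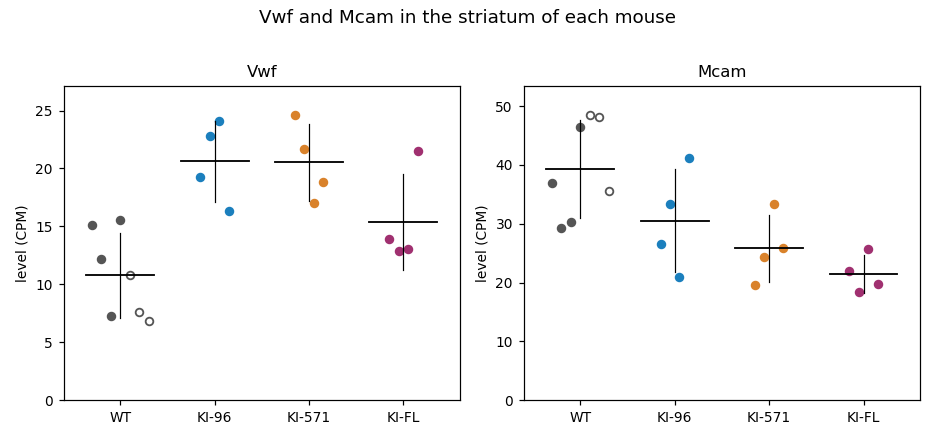
Level (CPM, axes from 0) of Vwf and Mcam in each of 19 mice, with open points for WT replicates 5 to 7, a line at the group mean and a bar of 1 SD. For Vwf all KI-96 and KI-571 mice lie above the WT mice, and for Mcam all KI-FL mice lie below them.

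Markers of other cells were set beside the vessel genes. Red blood cells reach the tissue inside vessels. Of their 5 markers, 2 passed the threshold in KI-571 mice against WT, where 0.0324% of all genes passed. The 5 markers summed to 79.5 to 214 CPM in WT, 86.6 to 141 CPM in KI-96, 163 to 483 CPM in KI-571 and 43.5 to 103 CPM in KI-FL mice. In KI-571 mice against WT, 2 of the 5 rose, Alas2, the first enzyme of heme synthesis in red cells (log2 fold change 1.77 ± 0.30, edgeR adjusted p = 0.0281), and the globin gene Hbb-bt (1.68 ± 0.30, adjusted p = 0.0467). The rise passed in 16 of 27 alternatives for Alas2 and in 13 of 27 for Hbb-bt, with adjusted p-values of 6.01e-05 to 0.387 and 0.000136 to 0.482. Between KI-571 and KI-FL mice 4 of the 5 differed, Alas2, Hbb-bs, Hba-a1 and Hbb-bt, by 1.95 to 2.06 on the log2 scale. Of all genes, 0.0864% passed in that comparison. In the same KI-571 mice the 6 endothelial genes summed to 199.6 to 266 CPM, with a median log2 fold change of 0.18 and no gene past the threshold. The part of blood left in the tissue was not tested.

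Astrocyte markers (7 genes, led by Slc1a2 and Slc1a3) summed to 3164 to 3969 CPM in WT and 2973 to 3945 CPM in knock-in mice, and microglial markers (5 genes, led by Csf1r and Cx3cr1) to 198 to 280 and 216 to 317 CPM. Perivascular fibroblast genes (7, led by Col1a2 and Col1a1) summed to 11.8 to 21.9 CPM in WT and 8.68 to 29.5 CPM in knock-in mice, and perivascular macrophage genes (5, led by Cd163 and Mrc1) to 9.68 to 16.3 and 7.11 to 17.5 CPM. None of the genes in these 4 lists passed the threshold against WT.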

How the data were processed

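Striatal RNA was sequenced from 4 mice of each knock-in line and 7 WT mice. The authors trimmed adapters with BBduk, aligned reads to GRCm38 with STAR and counted them with HTSeq, and the deposited values are raw counts per gene. Tool versions, the annotation release and strand setting are not given in the sources used here. The count table held 4 columns that matched no sample and were not used, and 5 summary lines with 20.8% to 32.8% of reads were kept out. Gene IDs were matched without their version suffix to symbols (54079 of 54232) and to GENCODE M21 (54165). The study's 'sac batch' term, and the WT sample it left out, are not given in the labels, so all 19 mice were kept with no batch term.

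Genotypes came from the labels. Genes were kept by edgeR's filterByExpr (minimum count 10, minimum total 15), scaled by TMM and fitted over all 19 mice with glmQLFit, 1 coefficient per genotype, and tested by glmQLFTest with Benjamini-Hochberg adjustment at 0.05. Intervals are 95% intervals of the fitted fold change. Levels are CPM, and log2 CPM used a prior count of 2. The study's methods describe the samples as mice but give fewer WT mice than the labels, and litters are not given, so p-values measure the spread between these samples. No pair within a genotype agreed within sampling noise. The floor of 3 counts covers counting error only.

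The vessel genes and the lists were chosen with earlier results of these data known. Genes named were the 10 vessel genes, the most abundant of each list by mean level, and the closest by Pearson r, and others were named after their values were seen, as stated. Some genes that this rule would name, and a list that rests on them, are not reported here. Tested on simulated data for KI-FL against WT (18521 genes), edgeR recovered 62% of 2-fold and 78% of 4-fold differences with 4.76% false calls, and DESeq2 70% and 80% with 17.1%. Alternatives were DESeq2, DESeq2 size factors, no filter, only the groups compared, a replicate block, Xist as a covariate, subsets of the WT mice and each mouse left out. R 4.3.3, edgeR 4.0.16, DESeq2 1.42.0, Python 3.11.15, pandas 2.3.3 and matplotlib 3.10.9 were used.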

Additional observations from a re-analysis of the deposited data

Results flagged for a closer look

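In 2 of the 40 sets formed by 10 genes and 4 genotypes, a single mouse lay far from the others of its genotype, and chance gives about 2. Ly6c1 in WT replicate 2 was at 4.79 log2 CPM, against 4.18 to 4.42 in the other WT mice. Vtn in KI-571 replicate 1 was at 6.06 log2 CPM, against 5.57 to 5.63 in the other KI-571 mice.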

How the results depend on the processing

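No vessel gene passed the threshold in any of 27 alternatives, which gave 1080 log2 fold changes with a smallest adjusted p of 0.0564. Of these 86 had the opposite sign, and 16 of the 40 fold changes kept theirs throughout. The replicate block and WT replicates 1 to 4 alone each turned 16, but these 2 alternatives are not independent of each other. DESeq2, its size factors in edgeR, and fits on only the groups compared turned none. The cause of a turn was not tested.

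With WT replicates 1 to 4 alone, the log2 fold changes that turned were Cldn5 -0.089 (KI-571), -0.20 (KI-FL), -0.028 (all knock-in), Pecam1 -0.013 (KI-96), -0.12 (KI-571), -0.23 (KI-FL), -0.12 (all knock-in), Flt1 -0.041 (KI-FL), Slc2a1 -0.15 (KI-96), Pdgfrb -0.026 (KI-96), -0.067 (KI-571), Rgs5 -0.096 (KI-96), -0.030 (KI-571), -0.016 (all knock-in), Acta2 0.065 (all knock-in) and Vtn -0.037 (KI-FL). With WT replicates 5 to 7 alone they were Ly6c1 0.057 (KI-FL), 0.037 (all knock-in), Pdgfrb 0.043 (KI-FL), 0.092 (all knock-in) and Acta2 -0.12 (KI-571). With Xist as a covariate they were Pecam1 -0.026 (KI-96), -0.00066 (KI-FL), Slc2a1 -0.19 (KI-96), Pdgfrb -0.057 (KI-96) and Rgs5 -0.14 (KI-96), and without a filter on low counts Pdgfrb -0.015 (KI-571) and Vtn -0.00059 (KI-FL).

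Same-numbered mice of different genotypes are different animals. Their deviations from the group means correlated with a median r of -0.0048 over 24 pairs (5 above 0.1). The samples were thus taken to share only a number. WT replicates 5 to 7 have no same-numbered knock-in mouse, so under the block they add little to a fold change against WT. For contrasts with WT, the block thus largely repeats the comparison with WT replicates 1 to 4 alone and is not a separate check. With the replicate block, the log2 fold changes that turned were Cldn5 -0.028 (KI-571), -0.12 (KI-FL), Pecam1 -0.0089 (KI-96), -0.12 (KI-571), -0.20 (KI-FL), -0.11 (all knock-in), Flt1 -0.0077 (KI-FL), Ly6c1 -0.015 (KI-571), Slc2a1 -0.12 (KI-96), Pdgfrb -0.013 (KI-96), -0.071 (KI-571), Rgs5 -0.072 (KI-96), -0.049 (KI-571), -0.0069 (all knock-in), Acta2 0.078 (all knock-in) and Vtn -0.030 (KI-FL). The block took the genes past the threshold to 0 in KI-96, 1 in KI-571, 0 in KI-FL and 0 in all knock-in mice, and to 1, 9 and 0 in KI-96 against KI-FL, KI-571 against KI-FL and KI-96 against KI-571.

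Leaving out each mouse in turn gave log2 fold changes from -0.14 to 0.24 for Cldn5 in KI-FL, -0.060 to 0.15 for Pecam1 in KI-FL, -0.026 to 0.28 for Ly6c1 in KI-571, -0.20 to 0.073 for Ly6c1 in KI-FL, -0.12 to 0.035 for Slco1a4 in KI-96, -0.038 to 0.16 for Slco1a4 in KI-FL, -0.0096 to 0.10 for Pdgfrb in KI-96, -0.12 to 0.050 for Pdgfrb in KI-571, -0.19 to 0.063 for Pdgfrb in KI-FL, -0.048 to 0.042 for Pdgfrb in all knock-in, -0.017 to 0.30 for Rgs5 in KI-571, -0.057 to 0.31 for Acta2 in KI-571 and -0.092 to 0.12 for Vtn in KI-FL. The number of all genes past the threshold then ran from 1 to 10 in KI-96, 0 to 46 in KI-571, 0 to 159 in KI-FL and 3 to 173 in all knock-in mice, and from 0 to 9, 1 to 21 and 0 to 5 between KI-96 and KI-FL, KI-571 and KI-FL, and KI-96 and KI-571.

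Over KI-96, KI-571, KI-FL and all knock-in mice against WT, and then KI-96 with KI-FL, KI-571 with KI-FL and KI-96 with KI-571, DESeq2 passed 28, 102, 509, 272, 38, 88 and 35 of all genes, against 5, 6, 36, 10, 0, 16 and 1 by edgeR. Without a filter the counts were 23, 78, 85, 140, 24, 25 and 35, on only the groups compared 0, 55, 336, 10, 2, 11 and 9, and with Xist 0, 6, 0, 0, 0, 14 and 0. WT replicates 1 to 4 alone gave 0 in all 4 comparisons with WT and WT replicates 5 to 7 alone 28, 18, 40 and 49. With DESeq2 size factors the mean level of Rgs5 in KI-96 mice was the 1 mean of 40 that moved by more than its SD.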
